A study of Mus musculus with 6 samples.

Results

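Histone genes were followed in activated regulatory T cells (Tregs) of the mouse after stimulation of EP4, a receptor for prostaglandin E2. The genes were chosen by name from the deposited tables, and 92 of the 47643 reference genes carried a histone name. They fall into 71 cluster genes, whose names start with Hist1h to Hist4h after the 4 gene clusters that hold them, and 21 replacement genes, whose names start with H2af, H3f3 or H1f. Of the cluster genes 56 belong to the Hist1 cluster, 11 to Hist2, 3 to Hist3 and 1 to Hist4. GENCODE M21 lists 67 cluster genes and 15 replacement genes as protein-coding, and the others as pseudogenes or non-coding RNA.

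Natural Tregs came from spleens of C57BL/6 mice of the genotype Foxp3-DTR/EGFP, in which the Foxp3 locus drives a diphtheria toxin receptor and EGFP. All cells were activated for 2 days with plate-bound anti-CD3, soluble anti-CD28 and IL-2. They were then kept for 6 h with 100 nM EP4 agonist (3 libraries) or with DMSO vehicle (3 libraries) and sorted on GFP before RNA was extracted. Libraries were made with the TruSeq Stranded mRNA kit, which selects RNA by its poly(A) tail. Separate mice or cultures are not stated for the replicates, so the errors given here cover the spread from library to library, which may be technical. The depth behind the values was inferred from the most common ratio of coverage to FPKM, as 4.32 to 5.65 gigabases of aligned sequence per library. That ratio was shared by 31.5 to 32.7% of the rows above 1 FPKM. No fragment counts were recovered.

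Foxp3 itself averaged 135 ± 16.6 FPKM (fragments per kilobase of transcript length, scaled to library size) in agonist libraries and 132 ± 22.0 FPKM in vehicle libraries (SD, n = 3 each). The sum of 6 Treg markers, Foxp3 among them, was 1640 to 1810 FPKM in agonist libraries and 1488 to 1588 FPKM in vehicle libraries. These sums did not overlap, and 0 of the 6 genes passed the test between groups given below. The summed FPKM of 4 B cell markers stayed at or below 1.66 in agonist libraries and 1.11 in vehicle libraries, and that of CD8 T cell markers between 4.53 and 6.40 in agonist libraries and between 3.89 and 5.43 in vehicle libraries. The sum of 2 proliferation markers, Mki67 and Top2a, was 229 to 305 FPKM in agonist libraries and 262 to 370 FPKM in vehicle libraries, and its part in the histone values was not tested. In these bulk samples, fewer cells of a kind and less RNA per cell cannot be told apart.

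Most cluster histone genes are replication-dependent: they are transcribed in S phase, when new nucleosomes are assembled on copied DNA. Their mRNAs end in a conserved stem-loop in place of a poly(A) tail, and the stem-loop binding protein Slbp holds this end during processing, export and decay. Most replacement histone genes are transcribed throughout the cell cycle, often contain introns, and make ordinary polyadenylated mRNAs for variants such as H2A.Z, macroH2A and the replacement form of H3. A poly(A)-selected library therefore samples these 2 kinds of transcript in different ways.

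The stem-loop was looked for in the GENCODE M21 transcripts, on the GRCm38 build (mm10), as the 16 letters GGNNNTTTTNANNNCC on the transcribed strand with bases of the stem that pair. It was present in 44 of 71 cluster genes (62.0%), in 1 of 21 replacement genes (4.76%) and in 35 of 55358 other genes (0.0632%). Of these 45 histone genes, 26 shared the sequence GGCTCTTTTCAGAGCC, 7 had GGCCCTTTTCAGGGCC and 6 had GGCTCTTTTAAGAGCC. A gene without a match may still carry a stem-loop outside its annotated transcript. The following stem-loops, with 5 bases on each side and the stem-loop in capitals, belong to 3 of the cluster genes with the highest level, to the cluster genes with the highest and the lowest fold change, and to the replacement gene that has a match.
Hist1h4i, chr13:22040961-22040986, minus strand: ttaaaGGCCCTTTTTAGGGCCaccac
Hist1h3c, chr13:23745042-23745067, minus strand: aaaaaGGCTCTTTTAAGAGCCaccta
Hist1h2ag, chr13:22042478-22042503, minus strand: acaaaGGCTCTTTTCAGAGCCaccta
Hist1h4h, chr13:23531453-23531478, plus strand: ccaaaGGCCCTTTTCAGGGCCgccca
Hist1h2bh, chr13:23542923-23542948, minus strand: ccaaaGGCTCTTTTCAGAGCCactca
H2afx, chr9:44335235-44335260, plus strand: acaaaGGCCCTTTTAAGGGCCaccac
The capitals differ only in a base pair of the stem and in the base after TTTT, and all 6 have aaa just before the stem. The deposited gene models differ in what follows. Those of Hist1h2ag and Hist1h3c end 23 and 34 bases after the stem-loop. That of Hist1h4i runs 330 bases past it and that of H2afx 822 bases, and the longest transcript of both has a poly(A) signal (AATAAA or ATTAAA) in its last 50 bases. The model of Hist1h2bh stops before the stem-loop, with 26 bases between them. Such a poly(A) signal was present in 17 cluster genes (23.9%), 12 replacement genes (57.1%) and 43.9% of all genes in the transcript set.

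The replacement genes were far more abundant than the cluster genes in these libraries, in both groups. Summed over all 71 genes, cluster histone transcripts reached 126, 175 and 134 FPKM in agonist libraries 1, 2 and 3, against 163, 162 and 135 FPKM in vehicle libraries 1, 2 and 3. The 21 replacement genes together reached 1323, 1407 and 1390 FPKM in agonist libraries, against 1455, 1388 and 1437 FPKM in vehicle libraries. The groups overlapped in both sums. Cluster genes thus held 8.71, 11.1 and 8.80% of all histone FPKM in agonist libraries and 10.1, 10.4 and 8.58% in vehicle libraries, a mean of 9.52 ± 1.33% in agonist libraries and 9.70 ± 0.985% in vehicle libraries (SD, n = 3 each). The difference of -0.176 percentage points was smaller than either spread. FPKM is per length of transcript, but levels of different genes can be set side by side only roughly. They also depend on the gene model and on how reads shared between genes were assigned. They measure what the poly(A) selection kept and not the histone mRNA of the cell.

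**Figure D1:**
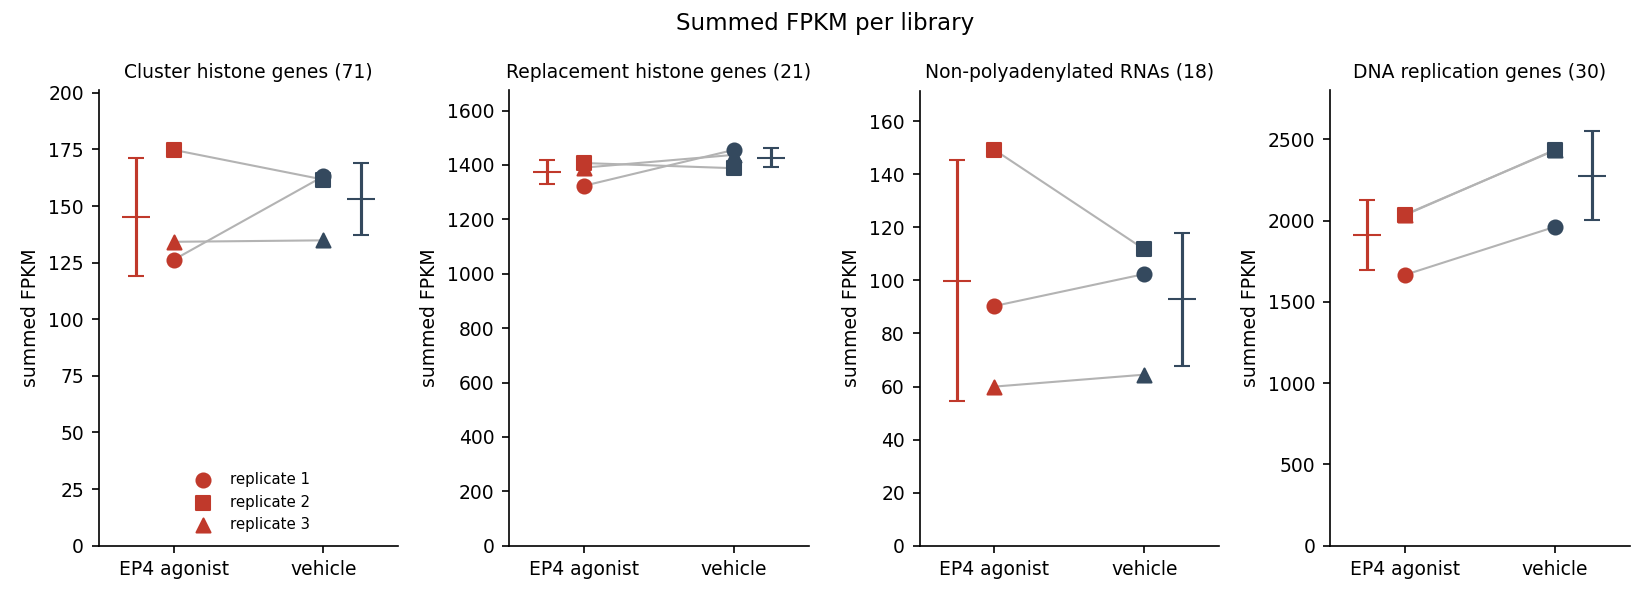
Summed FPKM per library (vertical axes, each from 0) of the 71 cluster histone genes, 21 replacement histone genes, 18 non-polyadenylated RNAs and 30 DNA replication genes, with EP4 agonist left of vehicle. Symbols are replicate numbers, grey lines join libraries of the same number, and bars beside the points are mean ± SD of 3. Cluster sums range from 126 to 175 FPKM and overlap between groups, and in each of the 3 replicate numbers the replication sum is lower in the agonist library. Replicates 2 and 3 lie on each other in the last panel.

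A gene was tested where 3 or more libraries had at least 1 FPKM, which 12186 reference genes met, among them 45 cluster genes and 12 replacement genes. The other 26 cluster genes and 9 replacement genes were too low. Of these, 2 cluster genes and 5 replacement genes were listed at 0 in every library. The testis linker histone gene Hist1h1t was among these cluster genes, and H2afb1, H2afb2 and H2afb3 were among these replacement genes. The median level of tested cluster genes was 2.29 FPKM and that of tested replacement genes 60.3 FPKM.

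Among the replacement genes, H2afz (H2A.Z, a variant found around transcription start sites) stood first with 605, 676 and 624 FPKM in agonist libraries, against 636, 643 and 608 FPKM in vehicle libraries. It alone held 38.7 to 42.8% of all histone FPKM in the 6 libraries. H3f3b and H3f3a, which encode the same replacement H3 protein, followed with 207 ± 4.54 and 157 ± 4.75 FPKM in agonist libraries and 218 ± 9.54 and 165 ± 15.2 FPKM in vehicle libraries (SD, n = 3 each). The next pair did not differ from each other beyond their spread: H2afy (macroH2A, a variant with a large extra domain) averaged 96.1 ± 19.0 FPKM in agonist libraries and 116 ± 17.5 FPKM in vehicle libraries, and H2afx (H2A.X, phosphorylated at DNA breaks) averaged 96.5 ± 5.84 FPKM in agonist libraries and 106 ± 6.25 FPKM in vehicle libraries. H2afv, the other H2A.Z gene, averaged 59.2 ± 5.40 FPKM with agonist and 60.3 ± 9.66 FPKM with vehicle. The linker histone gene H1f0 averaged 30.4 ± 3.39 FPKM with agonist and 32.5 ± 5.73 FPKM with vehicle. H2afj (H2A.J) averaged 20.5 ± 1.60 FPKM with agonist and 25.5 ± 1.69 FPKM with vehicle, and the linker histone gene H1fx was lowest, at 0.996 ± 0.22 FPKM with agonist and 0.924 ± 0.136 FPKM with vehicle.

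The annotation counts 3 further tested replacement genes as processed pseudogenes of H3f3a or its relatives. H3f3c averaged 58.6 ± 2.59 FPKM in agonist libraries and 63.3 ± 4.97 FPKM in vehicle libraries, H3f3a-ps2 9.76 ± 0.553 FPKM in agonist libraries and 8.40 ± 1.87 FPKM in vehicle libraries, and H3f3a-ps1 1.32 ± 0.271 FPKM in agonist libraries and 1.31 ± 0.577 FPKM in vehicle libraries (SD, n = 3 each). Stretches of 50 bases found in another gene made up 73.8% of the H3f3c transcript, 82.0% of H3f3a-ps2 and 54.3% of H3f3a-ps1. Whether their reads come from these loci or from their parent genes cannot be told from the tables. The same limit holds for the cluster genes, where the shared part had a median of 58.0% over the 45 tested genes, against 11.9% over the 12 tested replacement genes. It reached 100% in Hist2h2aa1 and Hist2h3b, near-identical copies of neighbouring genes. Hist2h2aa1 was listed at 0.019 FPKM in vehicle library 3 and between 1.19 and 3.99 FPKM in the other libraries, and Hist2h3b at 0 in agonist library 3 and between 1.10 and 1.74 FPKM in the others. Their values are uncertain for this reason.

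**Figure D2:**
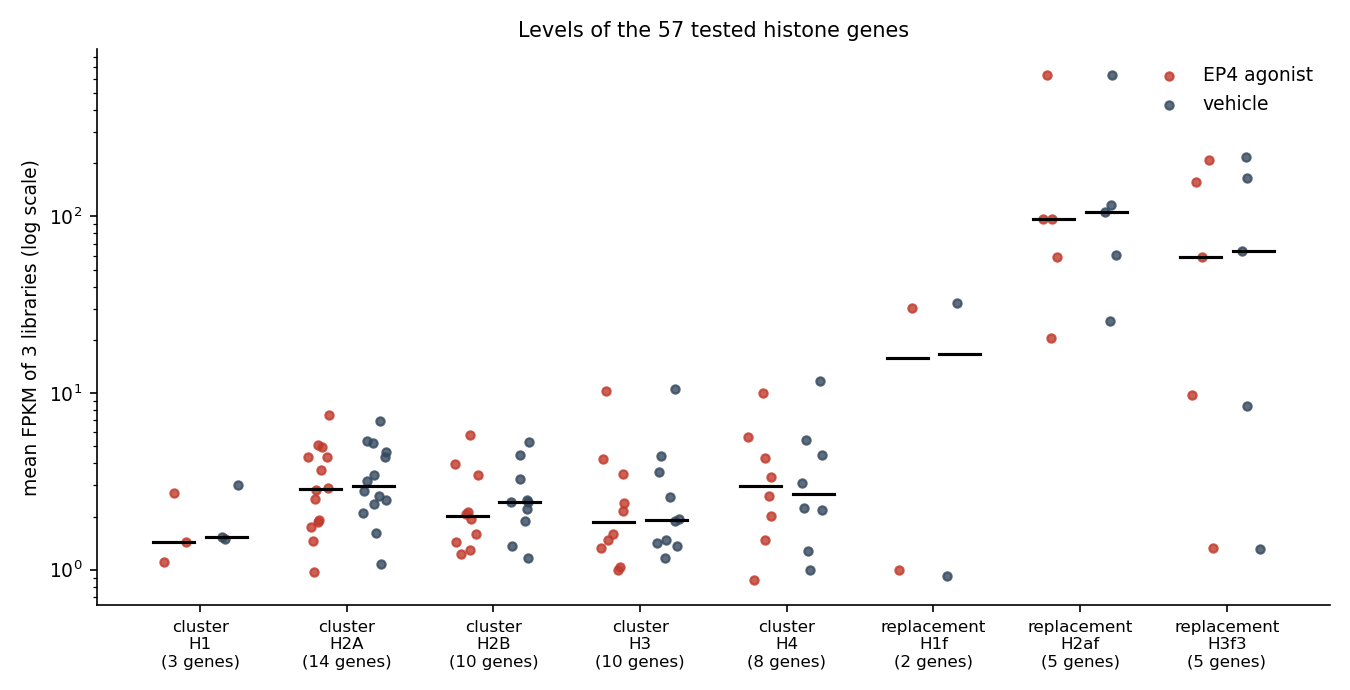
Mean FPKM of each of the 57 tested histone genes (vertical axis, log scale) by class and histone type, agonist left of vehicle within each type. Each point is the mean of 3 libraries for a gene and black lines are medians over genes. Cluster genes of all 5 types lie between 0.873 and 11.8 FPKM in both groups. The highest H2af gene, H2afz, lies at 635 FPKM with agonist and 629 FPKM with vehicle. The highest H3f3 gene, H3f3b, lies at 207 FPKM with agonist and 218 FPKM with vehicle.

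The cluster genes with the highest levels came from 4 of the 5 histone types. Hist1h4i, a gene for H4, had 10.2, 10.8 and 8.90 FPKM in agonist libraries, against 13.7, 11.2 and 10.4 FPKM in vehicle libraries, with overlap between the groups. Hist1h3c, for H3, had 8.31, 12.7 and 9.61 FPKM in agonist libraries, against 10.6, 11.6 and 9.56 FPKM in vehicle libraries. Its agonist libraries spanned the vehicle libraries on both sides. Hist1h2ag, for H2A, had 5.87, 9.06 and 7.67 FPKM in agonist libraries, while the vehicle libraries lay close together, between 6.94 and 6.998 FPKM. The H2B gene Hist1h2bj, its divergent neighbour, behaved alike, with 3.31, 7.82 and 6.17 FPKM in agonist libraries, against 4.93, 5.64 and 5.36 FPKM in vehicle libraries. Agonist library 1 was lowest and agonist library 2 highest of all 6 for both genes. The next 6 were Hist1h4d, Hist1h2af, Hist1h2ae, Hist1h2ap, Hist1h4b and Hist1h2ai, with means between 4.28 and 5.65 FPKM in agonist libraries and between 4.32 and 5.46 FPKM in vehicle libraries. Linker histone genes of the clusters were low: Hist1h1c led them with 2.71 ± 0.495 FPKM in agonist libraries and 3.02 ± 0.794 FPKM in vehicle libraries (SD, n = 3 each).

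By type, cluster H2A genes summed to 47.9 ± 10.1 FPKM in agonist libraries and 50.2 ± 3.41 FPKM in vehicle libraries. Cluster H4 genes summed to 31.8 ± 3.86 FPKM with agonist and 33.3 ± 4.87 FPKM with vehicle, and H3 genes to 30.01 ± 6.06 FPKM with agonist and 31.6 ± 2.77 FPKM with vehicle. Cluster H2B genes summed to 28.5 ± 5.48 FPKM with agonist and 30.5 ± 4.46 FPKM with vehicle, and H1 genes to 6.94 ± 1.39 FPKM with agonist and 7.65 ± 1.96 FPKM with vehicle (SD, n = 3 each throughout). In all 5 types the agonist mean was lower by less than the spread between libraries.

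Median levels were close between cluster genes grouped by the place of the stem-loop. The 24 tested cluster genes whose model ends within 100 bases of the stem-loop had a median level of 2.45 FPKM. The 15 with no stem-loop in their transcripts had 2.36 FPKM, and the 4 whose model runs further past it (Hist1h1c, Hist1h4i, Hist1h3e and Hist1h3f) had 2.13 FPKM. The 2 whose model ends before the stem-loop, Hist1h2bh and Hist1h2bm, had 2.11 FPKM. The 15 without a stem-loop are mixed. They include short annotated transcripts that may stop before one, such as Hist1h2bn (381 bases) and Hist1h4k (312 bases). They also include Hist2h2be, with 2620 bases and a poly(A) signal. The groups therefore follow the annotation and do not separate stem-loop from polyadenylated transcripts. Among the 4 with the extended models the levels ran from 1.10 to 10.9 FPKM, since Hist1h4i is both the highest cluster gene and a gene with an extended model. H2afx, with stem-loop and poly(A) signal in the same transcript, was measured at a level like that of H2afy, which has no stem-loop.

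No histone gene passed the test between agonist and vehicle. The test was limma on log2(FPKM + 1) over the 12186 genes with Benjamini-Hochberg adjustment at 0.05, in which 48 genes (0.394%) passed in either direction. The count was 0 of 45 cluster genes and 0 of 12 replacement genes. At an unadjusted p below 0.05 there were 3 cluster genes and 1 replacement gene, together 4 of 57, against 14.0% of all tested genes. The median log2 difference, agonist minus vehicle, was -0.07 over the tested cluster genes, with 33 below 0 and 12 above. Over the tested replacement genes the median was also -0.07, with 8 below 0 and 4 above. Over all 12186 tested genes it was -0.03, with 6971 below 0 and 5215 above. The medians of the 2 histone classes differed by -0.0044. The added 1 FPKM shrinks differences of low genes more than those of high genes. Tested cluster genes had a median level of 2.29 FPKM and tested replacement genes 60.3 FPKM. Close medians on this scale therefore do not show equal relative changes in the 2 classes. Restricting the classes to genes with at most 30% of their transcript shared left 9 cluster genes with a median of -0.07 and 8 replacement genes with a median of -0.08.

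The replicate numbers were taken to pair the libraries, and with the number as a block 1279 genes (10.5%) passed, 498 of them higher and 781 (6.41%) lower with agonist. Among histone genes, 0 of 45 cluster genes and 1 of 12 replacement genes passed with the block alone. An unadjusted p below 0.05 was given by 5 cluster genes and 3 replacement genes, against 29.8% of all tested genes. With quantile normalization added to the block, 997 genes (8.18%) passed, 519 of them higher and 478 lower, and 0 histone genes did. The gene that passed with the block alone was H2afy, with 83.4, 87.1 and 118 FPKM in agonist libraries, against 102, 112 and 136 FPKM in vehicle libraries. The groups overlap, but each agonist library was lower than the vehicle library of the same number. The log2 difference was -0.28 ± 0.16 (SE), with an adjusted p of 0.482 in limma without the block and of 0.0365 with it, and a blocked SE of 0.05. Assembled rows are separate rows built by the authors' program from the reads. Those that overlap H2afy on its strand, which may be several, summed to a mean of 198 FPKM in place of 106 FPKM. Their log2 difference was -0.37. What sets the rows apart was not tested.

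For 5 of the 57 tested histone genes the agonist and vehicle libraries did not overlap, against 19.4% of all tested genes. The agonist libraries lay below in 4 of the 57, against 12.1% of all tested genes. Among the 4, H2afj had 20.3, 22.2 and 19.1 FPKM in agonist libraries, against 27.1, 23.8 and 25.7 FPKM in vehicle libraries, a log2 difference of -0.30 ± 0.09 (SE; adjusted p = 0.212 in limma). The H2B gene Hist1h2bh had 1.37, 1.51 and 1.44 FPKM in agonist libraries, against 2.93, 2.27 and 2.08 FPKM in vehicle libraries. Its log2 difference of -0.48 ± 0.13 (SE; adjusted p = 0.185 in limma) was the lowest of the 57. Every agonist library lay below every vehicle library for both genes, yet neither passed, with or without the block. The H2B gene Hist1h2bb had 1.73, 1.72 and 1.29 FPKM in agonist libraries, against 2.23, 2.29 and 2.09 FPKM in vehicle libraries (log2 difference -0.32 ± 0.12, adjusted p = 0.314 in limma). Hist1h4f, an H4 gene chosen for mention after its values were seen, had 0.798, 0.779 and 1.04 FPKM in agonist libraries, against 1.39, 1.14 and 1.28 FPKM in vehicle libraries.

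Hist1h4h, another H4 gene, had 1.43, 1.69 and 1.30 FPKM in agonist libraries, against 0.979, 0.937 and 1.08 FPKM in vehicle libraries. It was the only tested histone gene with all agonist libraries above all vehicle libraries, with a log2 difference of 0.30 ± 0.12 (SE; adjusted p = 0.333 in limma). The other high differences were less regular. Hist1h2ak, an H2A gene, had 2.16, 5.84 and 2.95 FPKM in agonist libraries, against 3.31, 2.18 and 2.38 FPKM in vehicle libraries, and agonist library 2 alone carried the difference of 0.29 ± 0.28. Hist1h2bc, an H2B gene, had 4.09, 4.25 and 3.53 FPKM in agonist libraries, against 4.21, 3.06 and 2.52 FPKM in vehicle libraries, a difference of 0.23 ± 0.16. At the low end, the difference of Hist2h3b (-0.35 ± 0.36) rests on its value of 0 in agonist library 3.

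**Figure D3:**
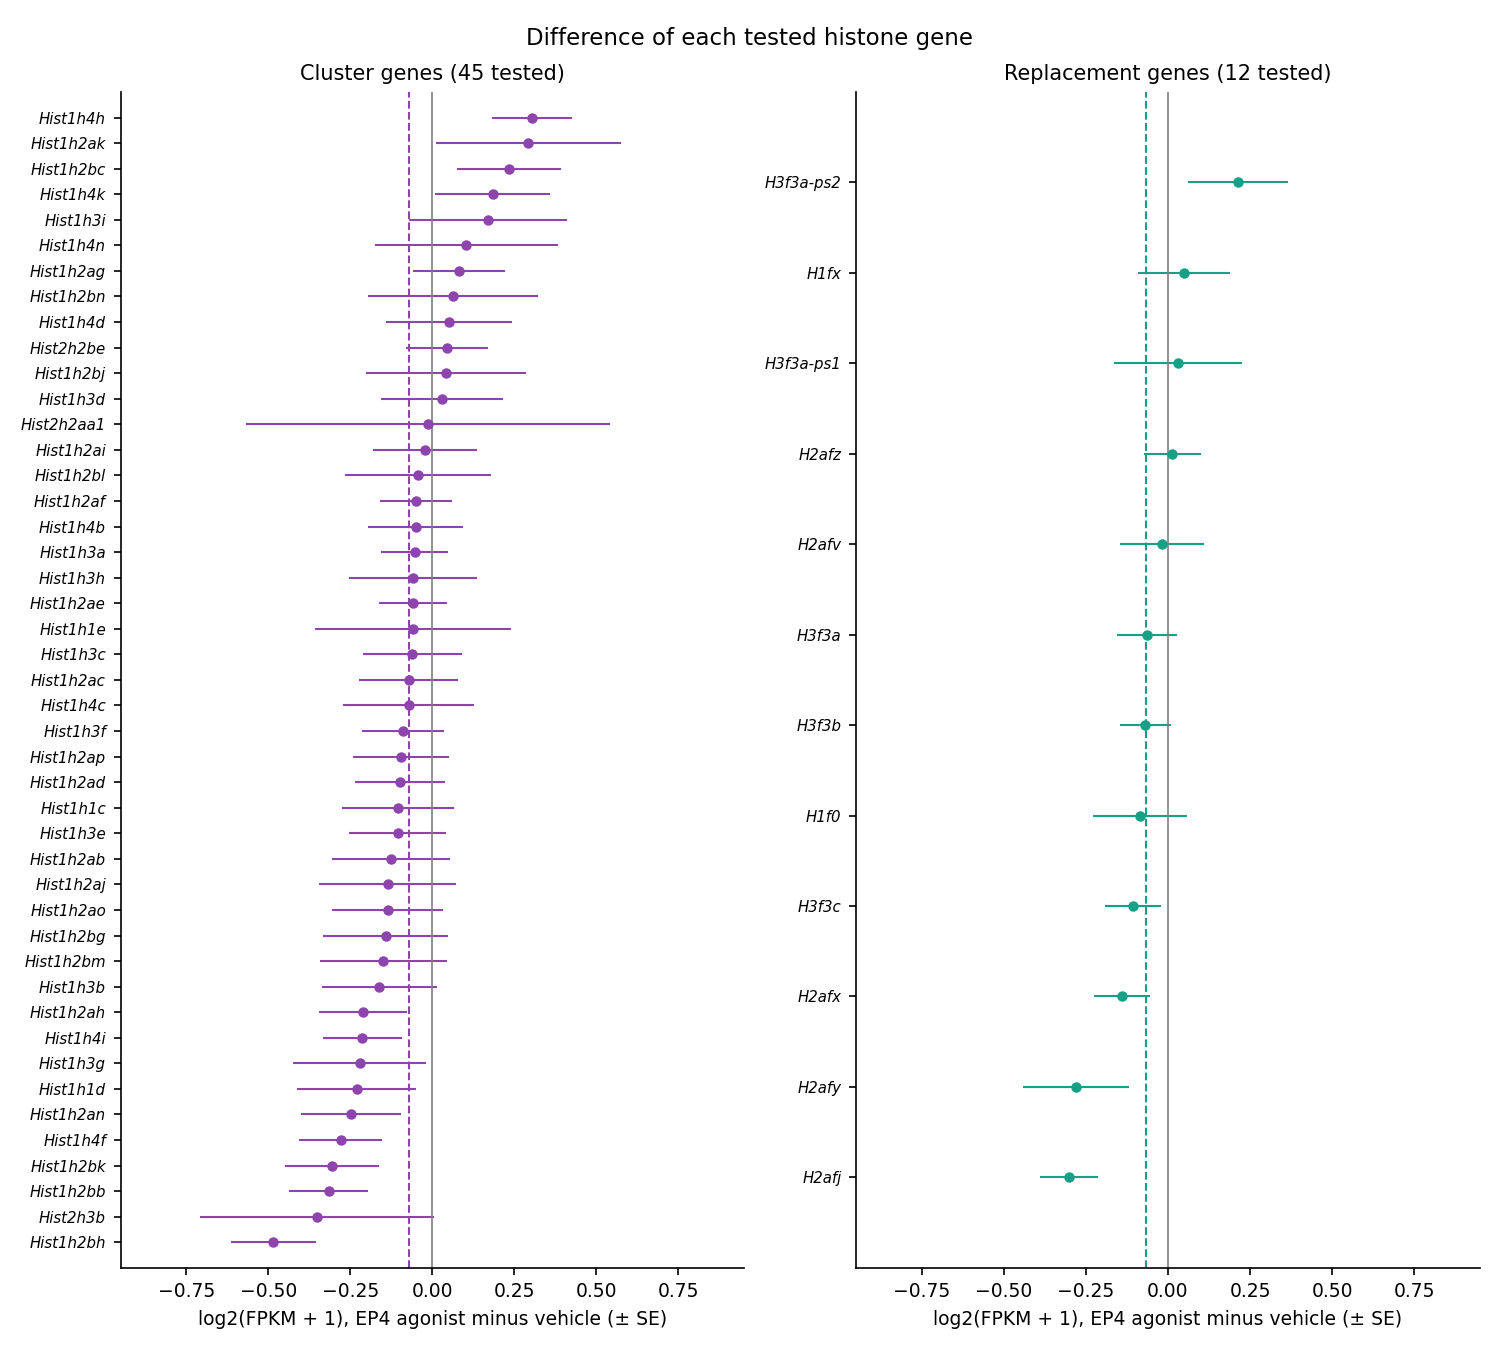
Difference in log2(FPKM + 1), EP4 agonist minus vehicle, for each of the 45 tested cluster genes (left) and 12 tested replacement genes (right), with SE from limma. Dashed lines mark the class medians, both at -0.07, and genes are ordered by their difference, the highest on top. Most error bars reach 0, and no gene passed the adjusted threshold without the replicate block. The scale shrinks differences of low genes, among them the cluster genes.

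The cluster genes varied between libraries more than they differed between groups, and they did so together. The median residual SD of a gene within a group was 0.233 on the log2 scale over the tested cluster genes, against 0.117 over the replacement genes and 0.158 over the 6314 tested genes with a mean of 1 to 11 FPKM, the range of the cluster genes. Within that range the cluster genes lay low, with a median of 2.29 FPKM. In 25 of the 45, over 50% of the transcript is shared with another gene, so the 45 are not separate observations. The part of shared reads in the common movement was not tested. Among the 3 agonist libraries, library 2 was the highest in 35 of 45 cluster genes (77.8%) and in 5 of 12 replacement genes (41.7%), against 29.5% of all tested genes. Within replicate number 1, 39 of 45 cluster genes were lower in the agonist library than in the vehicle library, and the median log2 difference was -0.318. Within numbers 2 and 3, 23 of 45 were lower in each, with medians of -0.002 and -0.007. Of all 12186 tested genes, 6878, 6881 and 6757 were lower in the agonist library in numbers 1, 2 and 3. The replacement genes had medians of -0.197, 0.032 and -0.054 in the same 3 numbers. The small negative median of the cluster genes over all libraries therefore comes from replicate number 1, and it is 0.03 without that number. It is 0.02 without agonist library 1 alone and -0.20 without agonist library 2.

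**Figure D4:**
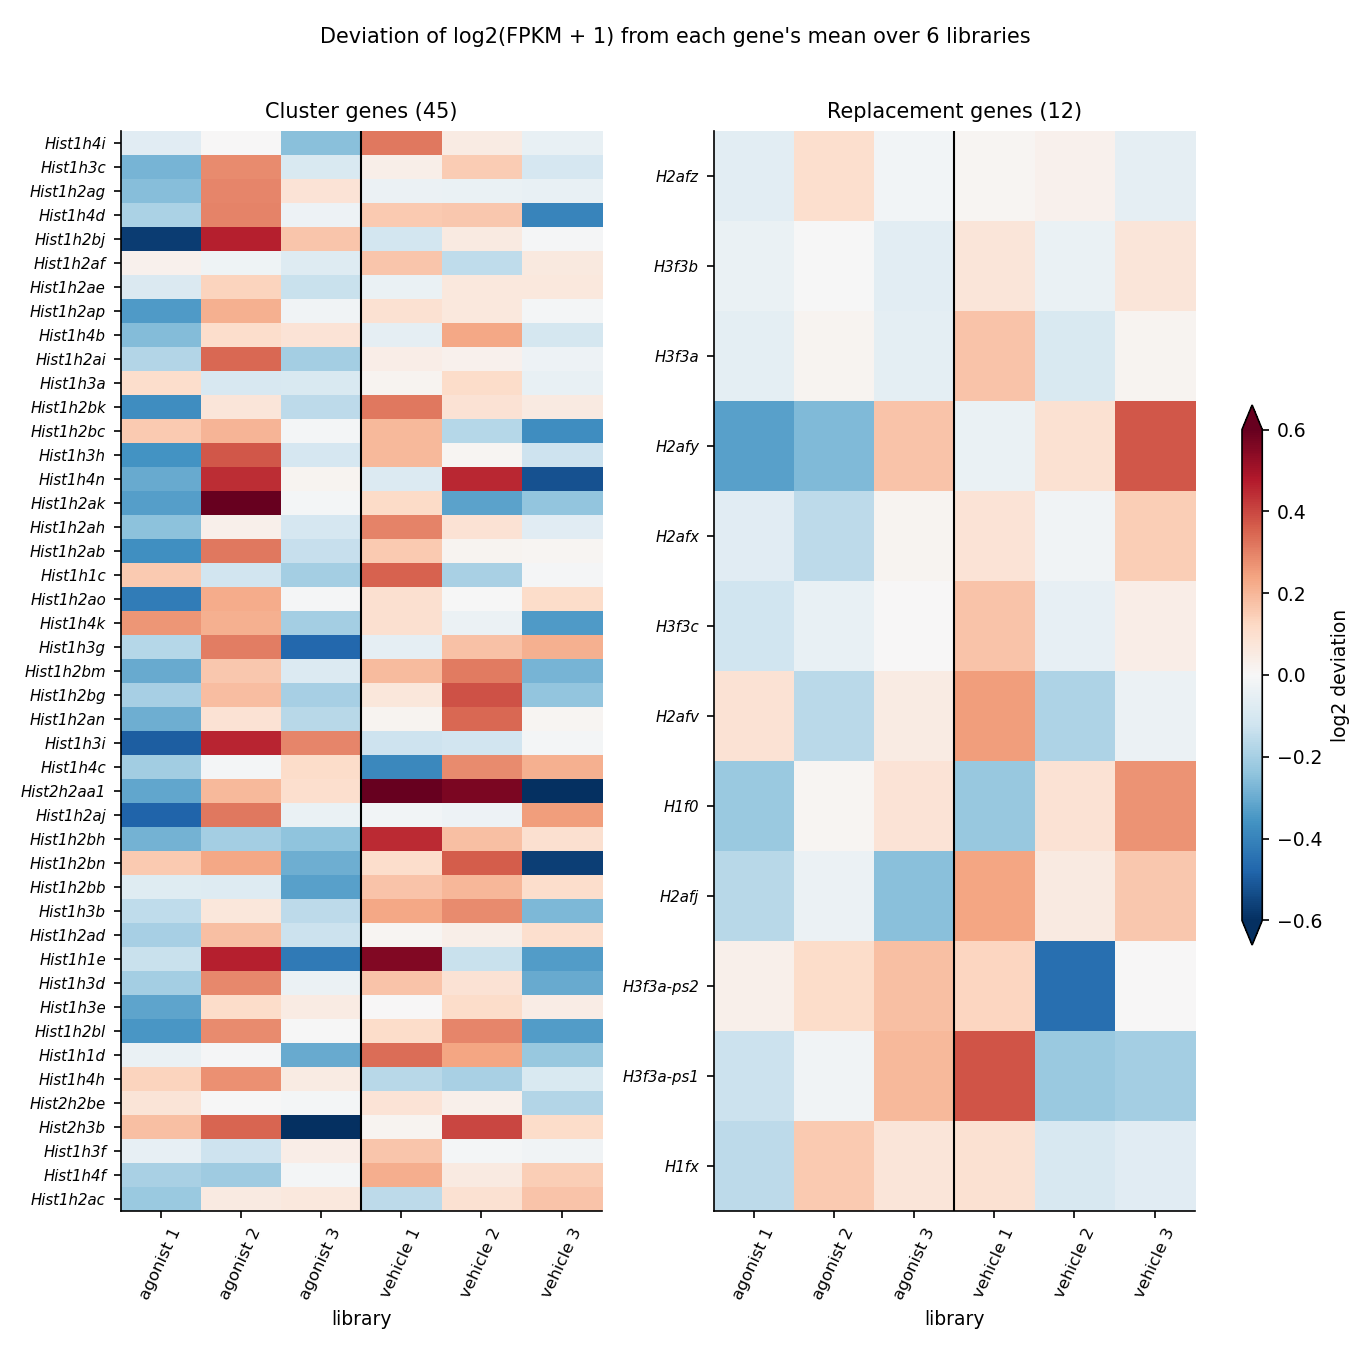
Deviation of log2(FPKM + 1) from each gene's mean over the 6 libraries (colour, red above and blue below, cut at 0.6 either way) for the tested cluster genes (left) and replacement genes (right), ordered by mean FPKM. The 3 agonist libraries stand left of the 3 vehicle libraries. Agonist library 2 is red and agonist library 1 blue down most of the cluster panel, while the replacement panel is paler.

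RNAs that lack a poly(A) tail were set beside the cluster genes from library to library. A list of 18 such RNAs, including the small nuclear RNA Rn7sk, which holds a transcription elongation factor in check, and the signal recognition particle RNAs Rn7s1 and Rn7s2, summed to 90.4, 149 and 60.0 FPKM in agonist libraries, against 102, 112 and 64.5 FPKM in vehicle libraries. Like the cluster sum, this sum was highest in agonist library 2. The lowest libraries differed: agonist library 3 for these RNAs (60.0 FPKM) and agonist library 1 for the cluster genes (126 FPKM). Over the 6 libraries the cluster sum had a Pearson r of 0.847 with the sum of these RNAs. It was 0.874 when the most abundant member, Gm26917, was left out. The r was 0.836 with Rn7sk alone, 0.477 with the replacement sum, 0.228 with the sum of DNA replication genes and -0.0019 with the inferred aligned bases. These values describe 6 points that share their libraries, and the part of poly(A) selection in the cluster values was not tested. The share of all genes that reach such an r is not given. Protein-coding genes named below followed the cluster sum more closely, so the r is not particular to these RNAs. Of the 10 tested RNAs on the list, 0 passed limma with or without the block (0 at an unadjusted p below 0.05 in either fit), and their median log2 difference was -0.12.

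The tested genes outside the histone families whose log2(FPKM + 1) followed the cluster sum most closely over the 6 libraries were Timm8b (r = 0.998), which encodes a chaperone of mitochondrial import, Nedd8 (r = 0.995), a ubiquitin-like protein, the small nucleolar RNA Snord73a (r = 0.994), Gm24357 (r = 0.984) and Sdhb (r = 0.981), a subunit of succinate dehydrogenase. They are the top 5 of 12129 genes compared, and each r describes 6 points.

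Histone supply was followed in a list of 40 genes for the transcription, 3' end processing and decay of histone mRNA and for histone chaperones. The list was chosen with earlier results of these data known, so its counts are a description. None of the 40 passed limma without the block (6 at an unadjusted p below 0.05, against 14.0% of all tested genes). Of the 40, 32 had a log2 difference below 0 and 8 above, against 6971 below 0 among all 12186 tested genes. Their median log2 difference was -0.13. It was -0.126, -0.144 and -0.124 in replicate numbers 1, 2 and 3. With the block, 5 of the 40 fell, against 6.41% of all tested genes, and 1 rose, against 4.09%. The importin Ipo4, which carries H3 and H4 into the nucleus, had 6.69, 7.77 and 6.45 FPKM in agonist libraries, against 8.31, 10.3 and 8.57 FPKM in vehicle libraries, without overlap (log2 difference -0.33, adjusted p = 0.0340 in limma with the block and 0.269 without). Ssrp1, a subunit of the chaperone FACT, Asf1b, an H3 and H4 chaperone, Rbbp7, a subunit of chromatin complexes, and Anp32e, which removes H2A.Z, were lower by 0.28, 0.24, 0.23 and 0.23 on the log2 scale, with adjusted p between 0.0352 and 0.0443 with the block and between 0.293 and 0.486 without.

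The gene that rose in the blocked fit was Zcchc6, an enzyme that adds uridines to RNA ends and takes part in decay, with 25.2, 24.5 and 27.0 FPKM in agonist libraries, against 21.8, 21.2 and 22.5 FPKM in vehicle libraries. Its log2 difference was 0.22, with an adjusted p of 0.0471 in limma with the block and 0.271 without. Slbp had 102, 121 and 125 FPKM in agonist libraries, against 109, 136 and 134 FPKM in vehicle libraries, a difference of -0.12 ± 0.12 (SE; adjusted p = 0.712 in limma). The groups of Slbp overlapped, and it did not pass in either fit. Of the 6 calls, those of Ipo4 and Zcchc6 held with quantile normalization added to the block, 2 of 40, against 8.18% of all tested genes.

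The 30 genes of DNA replication, the process to which cluster histone transcription is tied, were lower in the agonist library of every replicate number. Their summed level was 1666, 2034 and 2037 FPKM in agonist libraries, against 1961, 2435 and 2432 FPKM in vehicle libraries. All 30 had a log2 difference below 0, with a median of -0.23, and in each of the 3 replicate numbers all 30 were lower. Among all 12186 tested genes, 6971 had a difference below 0. None of the 30 passed limma without the block, and 6 had an unadjusted p below 0.05, against 14.0% of all tested genes. With the block 14 of the 30 fell, against 6.41% of all tested genes. With quantile normalization added to the block 6 fell, against 3.92%. The list was chosen with earlier results of these data known, so these counts describe it and are not independent support. Over all tested genes, most calls of the blocked fit were lost when a pair was left out, as given in the last section. By adjusted p in the blocked fit the first were Uhrf1, a maintenance methylation factor, Ung, which removes uracil from DNA, Cdt1, which licenses origins, the thymidine kinase gene Tk1, the dUTP hydrolase gene Dut and the helicase subunit gene Mcm2. The log2 differences of Ung, Cdt1, Tk1, Dut and Mcm2 were -0.44, -0.32, -0.30, -0.32 and -0.29. Uhrf1 had 95.0, 116 and 121 FPKM in agonist libraries, against 125, 162 and 164 FPKM in vehicle libraries, and its difference of -0.43 had an adjusted p of 0.0180 in limma with the block and 0.260 without. The difference between these genes and the cluster genes was not tested.

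**Figure D5:**
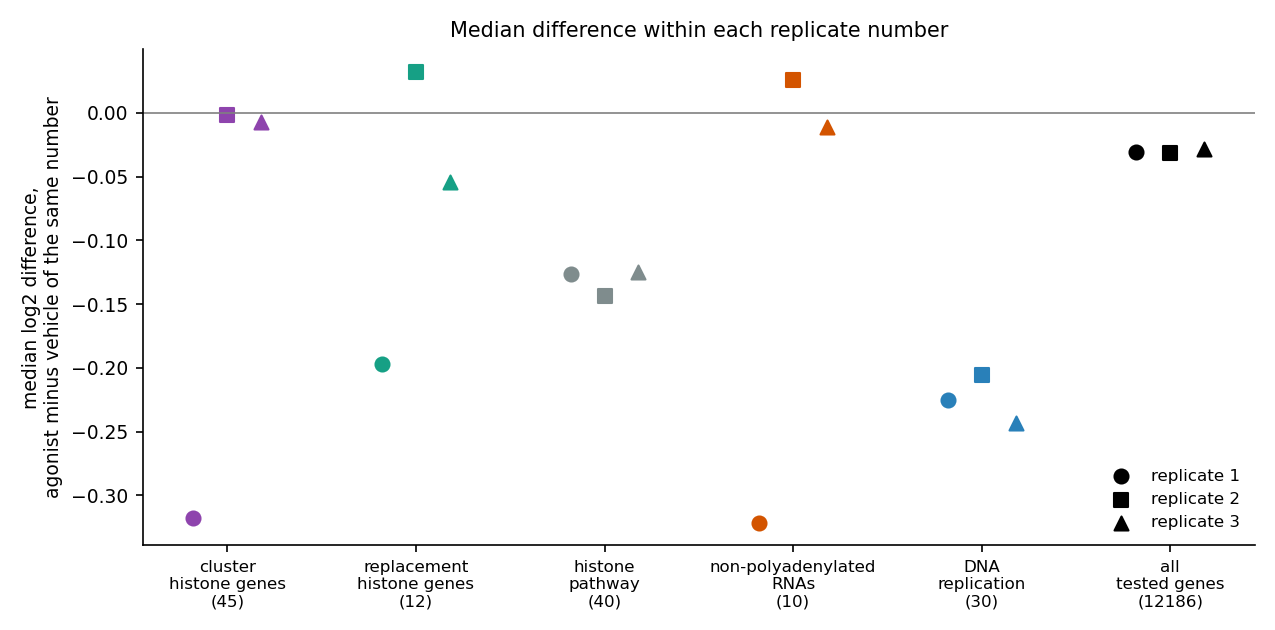
Median log2 difference, agonist minus vehicle, within each replicate number (vertical axis) for the tested genes of each list, with the number of genes in brackets. Symbols are replicate numbers. The replication genes lie between -0.205 and -0.243 in all 3, whereas the cluster genes and the non-polyadenylated RNAs lie near -0.32 in number 1 and near 0 in numbers 2 and 3. Differences are on log2(FPKM + 1), which shrinks those of low genes, among them the cluster genes.

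Promoters of 63 cluster genes and 15 replacement genes were matched in RefSeq (GRCm38.p6), each 250 bases before to 50 bases after the start. The CCAAT box, searched as CCAAT on both strands, was present in 85.7% of the cluster promoters, 60.0% of the replacement promoters and 37.4% of all 32851 promoters. TATAAA on the transcribed strand was present in 47.6% of the cluster promoters, 6.67% of the replacement promoters and 8.32% of all. The palindrome TGACGTCA, the full binding motif of cyclic AMP response element binding proteins, was searched because EP4 is known to raise cyclic AMP. It was present in 4 cluster promoters (6.35%), in 0 replacement promoters and in 1.79% of all. The tested genes among the 4 were Hist1h4h, Hist1h2bj and Hist1h2ag. Hist1h2bj and Hist1h2ag share a palindrome, which is counted in the promoter of each. The gene among the 4 that was too low to be tested, Hist1h4a, overlapped between groups. It had 0.886, 0.839 and 0.514 FPKM in agonist libraries, against 0.536, 1.23 and 0.311 FPKM in vehicle libraries. The first promoter below belongs to the gene with the highest fold change among tested cluster genes, the second lies between Hist1h2bj and Hist1h2ag, and the third, of H2afz, is shown for contrast. Capitals mark TGACGTCA and, in either direction, CCAAT.
Hist1h4h, chr13:23530794-23531093, plus strand: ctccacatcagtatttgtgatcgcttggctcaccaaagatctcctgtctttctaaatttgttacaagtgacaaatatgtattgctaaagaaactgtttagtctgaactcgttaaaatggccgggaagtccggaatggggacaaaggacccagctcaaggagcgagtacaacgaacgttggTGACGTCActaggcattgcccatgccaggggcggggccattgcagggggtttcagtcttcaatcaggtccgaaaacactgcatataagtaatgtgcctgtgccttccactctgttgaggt
Hist1h2bj, chr13:22042948-22043247, plus strand: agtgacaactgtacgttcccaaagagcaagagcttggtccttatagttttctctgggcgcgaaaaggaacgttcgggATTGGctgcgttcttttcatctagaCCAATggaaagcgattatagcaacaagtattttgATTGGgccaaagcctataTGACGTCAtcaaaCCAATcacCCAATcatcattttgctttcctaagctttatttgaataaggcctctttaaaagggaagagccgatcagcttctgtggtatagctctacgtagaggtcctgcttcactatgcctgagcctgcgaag
H2afz, chr3:137864237-137864536, plus strand: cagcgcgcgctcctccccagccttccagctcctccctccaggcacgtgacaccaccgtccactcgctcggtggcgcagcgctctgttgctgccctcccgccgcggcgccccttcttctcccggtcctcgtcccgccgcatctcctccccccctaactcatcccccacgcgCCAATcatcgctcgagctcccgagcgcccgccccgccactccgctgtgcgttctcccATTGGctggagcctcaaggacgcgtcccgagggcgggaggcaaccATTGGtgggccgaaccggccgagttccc
The promoter of Hist1h4h has the palindrome and no CCAAT, the divergent promoter has the palindrome among several CCAAT boxes, and that of H2afz has CCAAT boxes alone. The 3 tested genes with TGACGTCA had log2 differences of 0.30, 0.04 and 0.08. The median of the 37 other tested cluster genes with a promoter was -0.10, with 30 below 0, against 6971 of all 12186 tested genes. The values of Hist1h2bj and Hist1h2ag changed sign when agonist library 2 was left out, to -0.18 and -0.05, and did so under 5 and 2 settings in all, whereas that of Hist1h4h stayed between 0.22 and 0.51 under the settings tried. With 3 genes, of which a pair shares a promoter, this is a description of these genes.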

How the data were processed

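Sequencing was of poly(A)-selected RNA in 3 agonist and 3 vehicle libraries, grouped and numbered by their titles. Trim Galore, HISAT2 and mm10 are named in the submitters' processing notes; the program behind the gene tables, its annotation and its strandedness were not given in the sources used here, so antisense reads may be included. Per the file headers, the authors deposited FPKM, TPM and coverage per gene and library. FPKM was used as deposited, coverage only as an alternative, and TPM not at all.

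Genes that reached 1 FPKM in 3 or more libraries were tested on log2(FPKM + 1), which understates changes of low genes, with limma 3.58.1 (trend, robust; statmod 1.5.0, R 4.3.3) and Benjamini-Hochberg adjustment at 0.05. "Rose" and "fell" refer to this threshold. The fit was tested on simulated data with planted changes much larger than the histone differences. Its power for small changes was not tested. Deviations from group means correlated at 0.512, 0.404 and 0.321 for libraries of the same number and from -0.353 to 0.00197 for different numbers, so numbers were treated as pairs. The labels do not say what a number stands for, and a block chosen from these libraries favours small p-values.

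The histone genes and lists were chosen with earlier results of these data known. Named are all tested replacement genes, the 10 cluster genes with the highest mean FPKM, the 3 highest and 3 lowest fold changes among cluster genes with a mean of at least 1 FPKM, genes that passed with or without the block, up to 6 per list, Slbp, and the 5 genes most correlated with the cluster sum. Sequences come from GENCODE M21 transcripts, matched by identifier or symbol for 92 genes, and RefSeq promoters. Python 3.11.15, pandas 2.3.3, numpy 2.4.6 and matplotlib 3.10.9 were used. Alternatives were another pseudocount or filter, scalings, coverage, assembled rows, overlapping models left out, libraries left out and the block. No interval for counting error is given, since counts were not recovered.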

Additional observations from a re-analysis of the deposited data

How the results depend on the processing

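Without the replicate block, 0 of the tested histone genes passed under the other pseudocount, filters, scalings, coverage values, assembled rows or left-out libraries. With the replicate number as a block, which takes the numbers to pair the libraries, 1279 genes passed in place of 48, among them 1 replacement gene (H2afy), 6 genes of histone supply and 14 of DNA replication. With quantile normalization added to the block, an alternative chosen after seeing the data, 997 genes, 2 of histone supply and 6 of DNA replication passed, and 0 histone genes. Leaving out pair 1, 2 or 3 under the block gave 241, 0 and 1 genes and 0 histone genes. Without the block, 82 genes passed on coverage, 75 after upper quartile scaling and 2 with no filter, and leaving out single libraries gave 0 to 133. The cause was not tested. The difference between the class medians ranged from -0.108 to 0.0763 when single libraries were left out, against -0.0044 with all 6, the low end without agonist library 2 and the high end without agonist library 1. The share of cluster genes in histone FPKM moved less than replicates of a group differed. The separate class medians moved less than the SD of the median differences within replicate numbers 1, 2 and 3. For the cluster genes these differences were -0.318, -0.002 and -0.007, so number 1 makes this a wide limit. Of 549 values of the 28 named histone genes under alternatives, 50 changed sign, 45 of them with libraries left out, and none of these had passed in either setting. For 11 of the genes no value changed sign. Assembled rows were also read in place of reference rows after seeing the data. Depth was only inferred, as aligned bases, so counting error at a few FPKM is not bounded.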
